A study of Mus musculus with 13 samples.

Results

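Matrix metalloproteinases (Mmp), their tissue inhibitors (Timp) and the ADAMTS and ADAMTS-like genes (Adamts, Adamtsl) were followed in mesenchymal stromal cells of mouse marrow, connective-tissue cells that build the matrix around blood-forming cells. Members were the entries of the deposited table named Mmp, Timp, Adamts or Adamtsl with a number, apart from a matching gene that is not reported here. These were 50 of 33432 named entries: 22 Mmp, 4 Timp, 19 Adamts and 5 Adamtsl genes. FPKM was above 0 in at least 3 of the 13 libraries for 36 of them, which are described here. Another 7 were listed at 0 in every library (Mmp1a, Mmp1b, Mmp7, Mmp20, Mmp21, Adamts18 and Adamts19), and 7 were above 0 in only 1 or 2 (Mmp10, Mmp15, Mmp25, Mmp27, Adamts8, Adamts12 and Adamts20).

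The 13 libraries were made from polyadenylated RNA of sorted MSCs, drawn from marrow and compact bone of C57BL/6 mice. They comprised 3 libraries titled healthy homeostatic, 6 titled pre-leukemia and 4 titled recovered, which were taken to be the protocol's control mice, pre-leukemic mice and pre-leukemic mice that had been treated with MSCs, although no label ties the title recovered to that treatment. Which leukemia model was used, how old the mice were and which markers guided the sort is not stated in the sources. Nothing states that the replicates came from separate mice, so a p-value reflects only spread among these libraries, which may be technical. Values are FPKM, fragments scaled by transcript length and library size, so levels can be compared between genes per length. Changes are on the log2(FPKM + 1) scale, which understates the change of genes with low values.

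Metalloproteinases are zinc-dependent enzymes, secreted or held at the cell surface, that cut collagens, gelatins, proteoglycans and fibronectin. They are made as inactive precursors, are activated by other proteases and are blocked by TIMPs, which bind the active site. ADAMTS enzymes carry thrombospondin repeats and act on aggrecan, versican, procollagen and other matrix proteins, whereas ADAMTS-like proteins share the repeats, lack the protease domain and sit in the fibrillin network. In marrow and bone, stromal and osteoblastic cells are known sources of collagenase 3, gelatinase A and membrane-type 1 metalloproteinase, and gelatinase B is stored in neutrophil granules and made by osteoclasts.

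Promoter stretches are shown for 5 members whose calls are described below, because Mmp13 and Mmp3 lie in a metalloproteinase cluster and Mmp14, Adamts1 and Timp1 do not. Each run is the 130 bases before the RefSeq start on GRCm38.p6, 5′ to 3′ on the gene's strand, at chr9:7272384-7272513 for Mmp13, chr9:7445692-7445821 for Mmp3, chr14:54431468-54431597 for Mmp14, chr16:85803114-85803243 (minus strand) for Adamts1 and chrX:20870036-20870165 for Timp1. Capitals mark matches on either strand. AP-1 was searched as TGANTCA and the core site of RUNX factors as TGTGGT. The core site of ETS factors was searched as AGGAAG, the TATA box as TATAAA and the GC box as GGGCGG.
Mmp13: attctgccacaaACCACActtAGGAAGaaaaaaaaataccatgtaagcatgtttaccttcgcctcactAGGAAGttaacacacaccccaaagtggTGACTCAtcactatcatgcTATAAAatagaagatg
Mmp3: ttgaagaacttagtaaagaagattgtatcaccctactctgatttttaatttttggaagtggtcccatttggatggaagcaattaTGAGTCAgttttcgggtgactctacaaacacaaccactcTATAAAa
Mmp14: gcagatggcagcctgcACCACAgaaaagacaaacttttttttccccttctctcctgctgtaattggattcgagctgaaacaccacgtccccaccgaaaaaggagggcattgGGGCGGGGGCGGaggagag
Adamts1: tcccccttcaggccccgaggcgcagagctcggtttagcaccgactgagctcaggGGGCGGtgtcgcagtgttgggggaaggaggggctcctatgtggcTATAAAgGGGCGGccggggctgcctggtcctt
Timp1: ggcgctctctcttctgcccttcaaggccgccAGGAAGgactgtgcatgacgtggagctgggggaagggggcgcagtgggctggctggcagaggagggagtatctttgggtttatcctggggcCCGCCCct

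The collagenase gene Mmp13 and the stromelysin gene Mmp3 both held an AP-1 and a TATA match within this stretch, at positions -35 and -16 for Mmp13 and -46 and -7 for Mmp3, counted to the motif's first base. Mmp14 held a pair of GC boxes end to end at -19 and -13, and the 2 GC boxes of Adamts1 lay at -76 and -25 with a TATA match at -32. A RefSeq promoter was found for 35 of the 50 members, 23 of the 36 described ones among them. Over the 250 bases before the start, AP-1 was matched in 8 of these 35 genes (Mmp1a, Mmp1b, Mmp3, Mmp7, Mmp10, Mmp12, Mmp13 and Mmp20), against 6.75% of 32851 RefSeq promoters. GC boxes stood in 20 of 35 against 32.7%, TATA in 10 against 12.4%, RUNX in 6 against 14.0% and ETS in 12 against 29.5%. A match describes letters only, and some of these genes are recent duplicates with related sequences.

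All 8 genes with an AP-1 match lie in the metalloproteinase cluster of chromosome 9, where 9 members span 427.1 kb from base 7272514 to 7699585. Of these 9, Mmp13 averaged 310.1 FPKM and Mmp3 45.2 FPKM over the 13 libraries, while the other 7 averaged at most 0.248 FPKM. Mmp1a, Mmp1b, Mmp7 and Mmp20 were listed at 0 throughout. Among these 9 members, expression in these libraries was thus read at 2, Mmp13 and Mmp3, which are separated by Mmp12 and Mmp1b. A gene matched by the name pattern was left out of the members and was not read here. The values therefore describe the listed members and not the cluster as a whole.

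Healthy 1 and 3 differed by little more than the sampling noise (chi-square per gene 1.2 over 640 genes, against at least 15.1 for the other 23 pairs of the same group), and their mean was counted as 1 sample, which leaves 2 healthy samples. Estimated from steps between low values, 3 reads on 1 kb were worth 0.894 to 1.108 FPKM (healthy), 0.444 to 0.65 (pre-leukemic) and 0.982 to 1.783 (recovered); such floors reflect counting error alone. Immunoglobulin genes took 54.9 to 80.5% of the FPKM total in each pre-leukemic library and no more than 0.134% elsewhere. All 11 stromal markers of a list that includes Pdgfra, Cxcl12 and Col1a1 were detected in every group, but their summed FPKM was 3134 to 3696 (healthy), 97.6 to 250.2 (pre-leukemic) and 1769 to 2564 (recovered). The collagen genes Col1a2 and Col1a1 had the highest means of the list and weigh most in these sums. Between pre-leukemic and healthy samples 8 of the 11 were lower and 3 passed in neither direction (Nt5e, Thy1 and Eng), with Thy1 at means of 55 and 77.1 FPKM. All 16 pan-leukocyte markers were higher in pre-leukemic than in healthy samples, with sums of 3121 to 3848 against 148 to 180.1 FPKM, and 84.5 to 302.3 in recovered libraries. Leukocyte transcripts thus stood beside the labelled cell type's own in the pre-leukemic libraries.

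**Figure D1:**
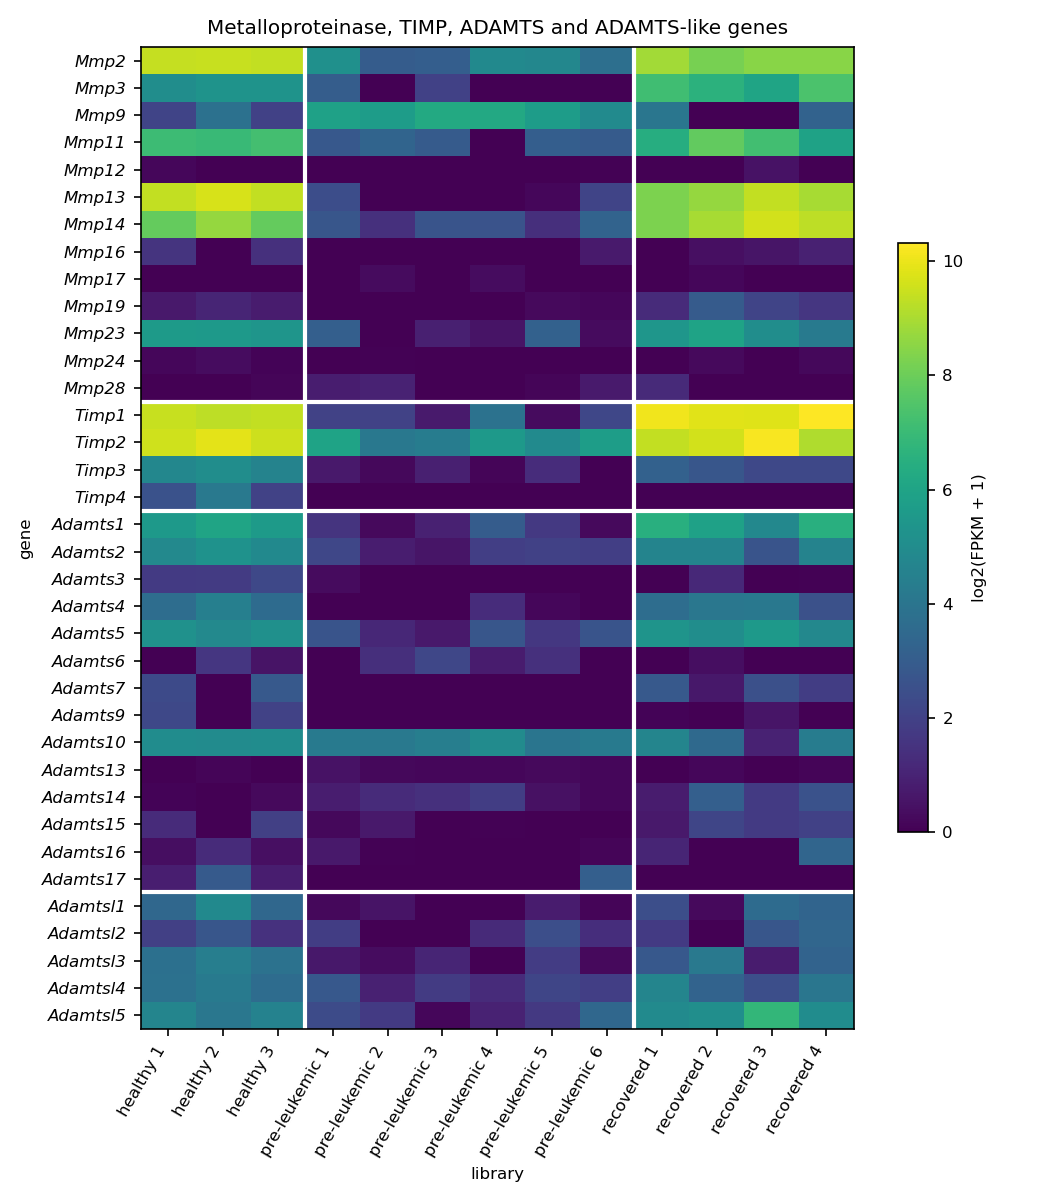
Level of the 36 described genes (rows, grouped as Mmp, Timp, Adamts and Adamtsl) in each of the 13 libraries (columns), coloured by log2(FPKM + 1); white lines part the families and groups. Most rows that are bright in healthy and recovered libraries are dark in the 6 pre-leukemic libraries, and Mmp9 shows the opposite.

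In healthy MSCs the families were dominated by a few genes. Timp2 ranked 112 to 142 among all named entries of a library by FPKM, Mmp13 129 to 166, Timp1 153 to 166 and Mmp2 153 to 161. Mmp13 and Mmp2 together with Mmp14, the membrane-type 1 enzyme that activates the Mmp2 precursor, made up most of the summed Mmp FPKM, at 36.8 to 38.2%, 32.2 to 37.7% and 13 to 19.1%. Among ADAMTS genes Adamts1 led with 27.4 to 33.1% of the family's FPKM. Healthy 2 differed from the near-identical healthy 1 and 3 for several low members: Adamts7, Adamts8, Adamts9, Adamts15 and Mmp16 were listed at 0 in healthy 2 and at 1.42 to 6.31 FPKM in the other two.

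Pre-leukemic MSCs were compared with healthy ones to ask how the cells' matrix-degrading genes stood in the disease state. Pre-leukemic cells had far less RNA of the collagenase Mmp13, the surface protease Mmp14, the gelatinase Mmp2 and the inhibitors Timp1 and Timp2, with falls of 4.61 to 8.74 on the log2 scale, and more of the gelatinase Mmp9. Of 28 members tested (at least 1 FPKM in at least 3 libraries), 19 were lower, 1 was higher (Mmp9) and 8 passed in neither direction by limma at an adjusted p under 0.05. Over all 13118 genes tested, 13.1% were called lower and 14.2% higher. The median change of the 26 members not listed at 0 throughout a group was -3.47, against 0.20 for all genes. By family, 6 of 8 Mmp, 4 of 4 Timp, 5 of 11 Adamts and 4 of 5 Adamtsl genes were lower. The filter keeps genes that are high in any group, so these counts hold for the tested members only. Timp4 passed it only through the healthy libraries and could not have been called higher here. Adamts3 likewise would not have passed it without the healthy libraries, so its lower call carries little weight. On the TPM scale, where each library sums to the same total, 791 genes were higher and 4200 lower, against 1858 and 1725 on the deposited scale. Of 11 osteoblast markers, 10 were lower in pre-leukemic than in healthy cells (median change -5.27). The other, Runx2, passed in neither direction (means 26.7 and 23.6 FPKM). In recovered against pre-leukemic cells 7 were higher and 3 passed in neither direction, where 14.8% of all genes were higher and 25.1% lower. Runx2 was lower there (-2.28, limma adjusted p = 0.000885). The marker sums were 4990 to 6207 FPKM (healthy), 53.9 to 116.9 (pre-leukemic) and 1592 to 2020 (recovered). Bglap, Sp7 and Dmp1 were listed at 0 in every pre-leukemic library. In bulk libraries, fewer stromal cells and less RNA per cell cannot be told apart. The part of osteoblastic cells or of the leukocyte RNA in the members' falls was not tested.

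Recovered MSCs were set against pre-leukemic ones to ask how the genes stood after recovery. The same 5 abundant genes stood higher in recovered cells, Mmp13 and Timp1 by more than the others at 8.04 and 8.13, and Mmp9 stood lower. Of the 28 members 20 were higher, 1 was lower (Mmp9) and 7 passed in neither direction, where 14.8% of all genes were called higher and 25.1% lower. The members' median change was 2.35, against -0.41 for all genes. Higher calls comprised 7 of 8 Mmp, 3 of 4 Timp, 6 of 11 Adamts and 4 of 5 Adamtsl genes. Of these, Mmp19, Adamts7 and Adamts15 reached 1 FPKM in no pre-leukemic library and passed the filter only with the recovered ones. A call of these genes here could hardly be other than higher and carries little weight. Both comparisons share the pre-leukemic libraries, so the values of each member are given side by side for the 3 groups. Over all genes, 1945 were higher and 3299 lower on the deposited scale, against 3768 and 1213 on the TPM scale and 2460 and 2424 after quantile normalization.

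Against healthy MSCs, recovered ones had 0 members called higher and 2 called lower, Timp3 and Timp4, where 0.518% of all genes were called higher and 1.99% lower by limma. Since Timp4 passed the filter only through the healthy libraries, it could not have been called higher. Adamts3 would not have passed the filter without the healthy libraries either. At an unadjusted p under 0.05, 2 members were higher (Mmp19 and Adamts14) and 4 lower (Timp3, Timp4, Adamts3 and Adamtsl1). The share of all genes at this unadjusted threshold was not counted, so these counts cannot be read as an excess. The median change over 27 members was -0.27, against -0.08 for all genes. A p that misses the threshold does not show that the levels were alike, and the standard errors of this comparison, 0.41 to 1.01 for these genes, leave room for sizeable differences. Over all genes 68 were higher and 261 lower, against 48 and 401 on the TPM scale and 66 and 145 after quantile normalization.

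**Figure D2:**
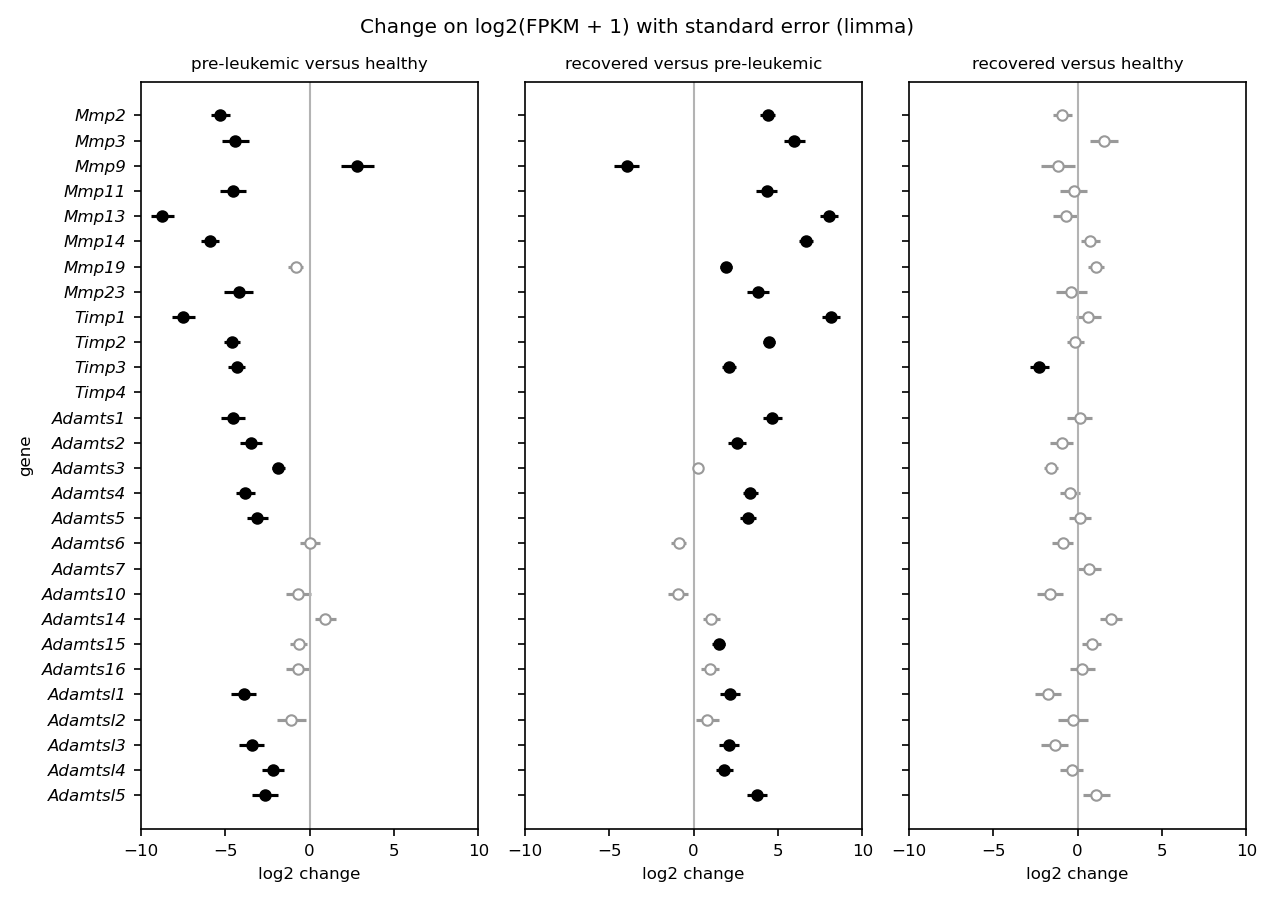
Change on the log2(FPKM + 1) scale with its standard error (limma, 12 samples) for the 28 tested members in the 3 comparisons; filled points passed an adjusted p under 0.05, open points did not, and genes listed at 0 throughout a group are left blank. Points lie left of 0 in the panel of pre-leukemic against healthy and right of 0 in that of recovered against pre-leukemic for most members, with Mmp9 on the other side.

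Among the metalloproteinases, the collagenase gene Mmp13 (chr9:7272514-7283331, on GRCm38 as are the coordinates below) had the largest change in size among the tested members between pre-leukemic and healthy cells. It stood at 656, 824 and 664 FPKM in healthy 1 to 3 and at 310.4, 411, 665 and 494 FPKM in recovered 1 to 4. In pre-leukemic libraries it ranged from 0 to 4.47 FPKM with a median of 0.0615, and was listed at 0 in 3 of 6. No pre-leukemic library came near the other groups, whereas healthy and recovered libraries overlapped. The change was -8.74 ± 0.68 (SE) in pre-leukemic against healthy (limma, adjusted p = 9.71e-07) and 8.04 ± 0.54 in recovered against pre-leukemic (7.77e-08).

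Mmp14 (chr14:54431612-54445364), which cuts collagen at the cell surface, measured 232, 412 and 235 FPKM in healthy 1 to 3 and 312, 497, 773 and 623 FPKM in recovered 1 to 4. Its pre-leukemic libraries lay between 1.65 and 8.76 FPKM, median 5.39. Healthy 2 stood inside the recovered range, and all 6 pre-leukemic libraries were below both other groups. The gene fell by 5.91 ± 0.54 in pre-leukemic against healthy cells (limma, adjusted p = 3.46e-06) and rose by 6.66 ± 0.43 in recovered against pre-leukemic cells (5.68e-08).

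The gelatinase A gene Mmp2 (chr8:92827291-92853420), whose product cuts denatured collagen and collagen IV, had 672, 695 and 652 FPKM in healthy 1 to 3 and 474, 291, 356 and 353 FPKM in recovered 1 to 4. Pre-leukemic libraries ranged from 7.11 to 34.8 FPKM, median 19.4. The 3 groups did not overlap, with recovered libraries between the others. Its change was -5.29 ± 0.54 (limma, adjusted p = 8.85e-06) in pre-leukemic against healthy and 4.39 ± 0.43 (2.39e-06) in recovered against pre-leukemic, while recovered against healthy gave -0.90 ± 0.58 (0.485).

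Mmp3 (chr9:7445822-7455975), stromelysin 1, which also activates other metalloproteinase precursors, was at 32.2, 38.4 and 38.3 FPKM in healthy 1 to 3 and at 141, 98.5, 63.9 and 165 FPKM in recovered 1 to 4. It was listed at 0 in 4 of 6 pre-leukemic libraries and reached 7.15 FPKM in pre-leukemic 1. Every recovered library was above every healthy one and every healthy one above every pre-leukemic one. Mmp3 fell by 4.41 ± 0.79 in pre-leukemic against healthy cells (limma, adjusted p = 0.000853) and rose by 5.96 ± 0.62 in recovered against pre-leukemic cells (4.51e-06), and the change of 1.56 ± 0.84 in recovered against healthy did not pass (0.387).

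Mmp11 (chr10:75923222-75936496), stromelysin 3, an enzyme of stromal cells in remodelling tissue, had 134, 128 and 149 FPKM in healthy 1 to 3 and 84.3, 228, 147 and 61.2 FPKM in recovered 1 to 4. Pre-leukemic libraries ranged from 0 to 9.07 FPKM, median 6.86, with the 0 in pre-leukemic 4. All pre-leukemic libraries were below all others, and the recovered libraries lay on both sides of the healthy ones. Changes were -4.55 ± 0.76 (limma, adjusted p = 0.000502) and 4.33 ± 0.60 (6.27e-05) in the pair of comparisons with pre-leukemic cells. An exon of Chchd10 on the opposite strand overlaps Mmp11, and no strand-specific counting is stated, so reads of the pair cannot be told apart; Chchd10 passed in no comparison and stood at 57.5 to 151.6 FPKM.

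Mmp23 (chr4:155650655-155653384), a membrane-anchored family member, stood at 48.6, 46.0 and 40.6 FPKM in healthy 1 to 3 and at 41.7, 62.8, 32.3 and 17.3 FPKM in recovered 1 to 4. Pre-leukemic libraries ran from 0 to 8.31 FPKM with a median of 0.655. The 2 libraries above 1 FPKM among them were pre-leukemic 1 and 5. Mmp23 fell by 4.19 ± 0.86 (limma, adjusted p = 0.0022) in pre-leukemic against healthy and rose by 3.82 ± 0.68 (0.000472) in recovered against pre-leukemic cells.

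Mmp19 (chr10:128790910-128800824), which cuts basement membrane proteins, was low everywhere. It had 0.629, 1.09 and 0.703 FPKM in healthy 1 to 3 and 1.44, 6.69, 3.30 and 2.09 FPKM in recovered 1 to 4. In pre-leukemic libraries it was at most 0.189 FPKM and listed at 0 in 4 of 6. The order was recovered, healthy, pre-leukemic with no overlap, yet only the rise of 1.92 ± 0.35 in recovered against pre-leukemic cells passed (limma, adjusted p = 0.000601). With a pseudocount of 0.1, the change of -2.79 in pre-leukemic against healthy cells passed as well (0.033). Mmp19 passed the filter only with the recovered libraries, so its call in recovered cells carries little weight. Tmem198b on the opposite strand overlaps an exon of Mmp19 and was at 0 to 27.1 FPKM.

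Gelatinase B, Mmp9 (chr2:164940780-164955850), was the member that went the other way. It had 3.32, 13.5 and 3.02 FPKM in healthy 1 to 3 and 15.5, 0, 0 and 8.52 FPKM in recovered 1 to 4. Pre-leukemic libraries ranged from 29.5 to 75.4 FPKM, median 55.2. Every pre-leukemic library was above every other library, and healthy and recovered ones overlapped. Mmp9 was higher by 2.83 ± 0.96 in pre-leukemic than in healthy cells (limma, adjusted p = 0.0402) and fell by 3.96 ± 0.76 in recovered against pre-leukemic cells (0.000847).

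The rise of Mmp9 did not pass on the TPM scale (1.27, adjusted p = 0.363), with a pseudocount of 0.1 (0.2), without a filter (0.0751), without healthy 2 (0.0876) or without any one of pre-leukemic 1 to 5 (0.0593 to 0.0673), whereas its fall in recovered cells kept its call under every alternative run. Beside it, 8 of 15 neutrophil markers tested were higher in pre-leukemic than in healthy cells and 7 passed in neither direction, where 14.2% of all genes were higher. Their summed levels were 100.5 to 144.2 FPKM (healthy), 3149 to 15630 (pre-leukemic) and 23.7 to 646.3 (recovered). S100a9, Ngp, Ltf, Camp, Lcn2, Retnlg and Fcnb were listed at 0 in all healthy libraries, whereas Elane, Mpo, Prtn3 and Ctsg stood at 8.63 to 44.87 FPKM there. Mmp9 was highest in pre-leukemic 3 and 4 (75.4 and 72.8 FPKM). In these libraries S100a8, S100a9, Ngp, Ltf, Camp and Lcn2 were lowest among the pre-leukemic ones, but Retnlg was highest in pre-leukemic 4. Monocyte and macrophage markers summed to 65 to 71.4, 3418 to 5178 and 37 to 166.2 FPKM, with 5 of 11 higher. Osteoclast markers summed to 285.1 to 301.6, 39.4 to 74.7 and 142.5 to 543.4 FPKM, with Dcstamp listed at 0 throughout. The highest of them by group mean was Ctsk in healthy (262 FPKM) and recovered cells (337) and Acp5 in pre-leukemic ones (43.3, with Ctsk at 7.33). The part of these cells in the level of Mmp9 was not tested.

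**Figure D3:**
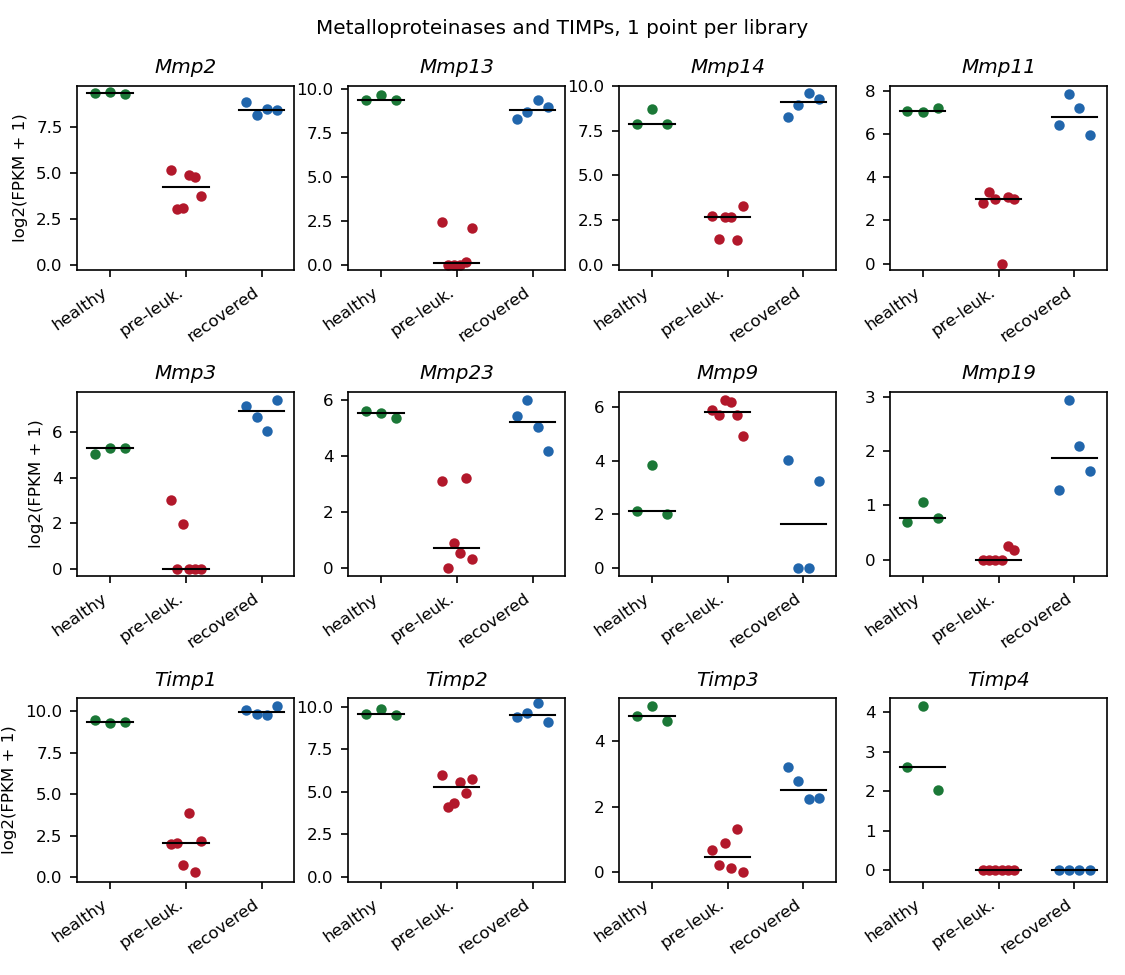
Each point is 1 library's log2(FPKM + 1) for 8 Mmp and 4 Timp genes in healthy (3), pre-leukemic (6) and recovered (4) libraries, and the black bar is the group's median. Pre-leukemic points lie below both other groups for Mmp2, Mmp13, Mmp14, Mmp11, Mmp3, Mmp23, Mmp19, Timp1, Timp2 and Timp3, above them for Mmp9, and Timp4 is at 0 in all but the healthy libraries.

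Of the inhibitors, Timp1 (chrX:20870166-20874735), a secreted broad inhibitor that also binds the Mmp9 precursor, stood at 705, 629.6 and 665 FPKM in healthy 1 to 3 and at 1076, 920.0, 889 and 1270.4 FPKM in recovered 1 to 4. Pre-leukemic libraries were between 0.246 and 13.8 FPKM, median 3.09. All recovered libraries exceeded all healthy ones, and all pre-leukemic libraries were far below. Timp1 fell by 7.49 ± 0.68 in pre-leukemic against healthy (limma, adjusted p = 3.27e-06) and rose by 8.13 ± 0.54 in recovered against pre-leukemic cells (7.28e-08). The change of 0.65 ± 0.72 between recovered and healthy did not pass (0.737).

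Timp2 (chr11:118301069-118355740), which blocks metalloproteinases and also bridges Mmp14 and the Mmp2 precursor for activation, had 762, 941 and 737 FPKM in healthy 1 to 3 and 658, 786, 1177 and 547 FPKM in recovered 1 to 4. In pre-leukemic libraries it ranged from 16.4 to 61.9 FPKM, median 38.2. Healthy libraries fell inside the recovered range, and pre-leukemic ones were below both. The changes were -4.61 ± 0.47 (limma, adjusted p = 8.92e-06) and 4.46 ± 0.37 (6.1e-07).

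Timp3 (chr10:86300372-86349506), the inhibitor that binds the matrix and also blocks ADAMTS enzymes, was at 26.2, 32.4 and 23.5 FPKM in healthy 1 to 3 and at 8.33, 5.85, 3.67 and 3.77 FPKM in recovered 1 to 4. Pre-leukemic libraries ranged from 0 to 1.48 FPKM, median 0.388. The 3 groups did not overlap. Timp3 fell by 4.33 ± 0.52 in pre-leukemic against healthy (limma, adjusted p = 3.27e-05), rose by 2.08 ± 0.41 in recovered against pre-leukemic (0.00112) and was lower in recovered than in healthy cells, with a change of -2.26 ± 0.55 (0.0458). The last of these calls was kept in 5 of 21 alternatives, and its adjusted p ran from 0.0118 to 0.33. It was lost after quantile normalization (0.0647), with a pseudocount of 0.1 (0.291), without a filter (0.0526), with a mean of at least 5 FPKM (0.0916), with the replicate block (0.0711) and on leaving out any one library other than healthy 3 or recovered 1 (0.05 to 0.33). Exons of Syn3 on the opposite strand overlap Timp3, and without strand their reads cannot be told apart. The value listed for Syn3, known as a neuronal gene, was 347, 420.4 and 350.3 FPKM in healthy 1 to 3, 3.17 to 12.2 over the pre-leukemic and 136.5 to 197.1 over the recovered ones. Syn3 was higher than Timp3 in every library and its change between recovered and healthy did not pass (-1.28 ± 0.49, limma adjusted p = 0.202), so the level of Timp3 is uncertain.

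Timp4 (chr6:115241892-115252205), a more tissue-restricted inhibitor, was at 5.10, 16.9 and 3.10 FPKM in healthy 1 to 3 and was listed at 0 in all 6 pre-leukemic and all 4 recovered libraries. It was called lower in pre-leukemic (limma, adjusted p = 6.14e-05) and in recovered cells (0.00158) than in healthy ones, and no fold is given against groups at 0. Timp4 passed the filter only through the 3 healthy libraries, of which healthy 1 and 3 are near-duplicates. A call against them could therefore only be lower, and these p-values carry little weight. The values are low, and an exon of Syn2 on the opposite strand, at 0 to 2.80 FPKM, overlaps Timp4. Chondrocyte markers differed beside Timp3 and Timp4: 2 of 7 tested were lower in recovered than in healthy cells, against 1.99% of all genes. Their sums were 3619 to 3873 FPKM (healthy), 1.75 to 6.73 (pre-leukemic) and 696 to 1105 (recovered). Their part in the calls of both genes was not tested.

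Ratios within a library do not depend on how libraries were scaled. The summed Mmp FPKM was 1.19 to 1.33 times the summed Timp FPKM in healthy libraries, 1.13 to 4.96 times in pre-leukemic and 0.793 to 0.986 times in recovered ones, so every recovered library was below every healthy one. Leaving Mmp9 out, the pre-leukemic ratio was 0.576 to 1.43. The ratio of Mmp14 to Timp2 was 0.305 to 0.438 (healthy), 0.0553 to 0.287 (pre-leukemic) and 0.474 to 1.14 (recovered), with no overlap. Mmp2 was 1.68 to 2.89 times Mmp14 in healthy and 0.46 to 1.52 times in recovered libraries, and Mmp3 was 0.0466 to 0.0577 times Mmp13 in healthy and 0.0961 to 0.455 times in recovered libraries. These are ranges over 3, 6 and 4 libraries, given as descriptions. Healthy 1 and 3 are near-duplicates, so the healthy ranges rest on 2 samples. The summed Timp FPKM holds the value listed for Timp3, whose reads cannot be told apart from those of the overlapping Syn3. Syn3 reached 420.4 (healthy), 12.2 (pre-leukemic) and 197.1 FPKM (recovered), so the ratios to the Timp sum are uncertain to that extent.

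Shares within a family were read in the same way. Mmp9 was 0.17 to 0.628% of the summed Mmp FPKM in healthy libraries, 46.6 to 73.8% of it in pre-leukemic libraries, but 0 to 1.12% in the recovered ones. Mmp14 took 22.6 to 37.9% in recovered against 13 to 19.1% in healthy libraries, and Mmp13 took 22.5 to 32.6% against 36.8 to 38.2%. Timp2 made up 77 to 94.5% of the Timp sum in pre-leukemic libraries, 50.9 to 58.1% in healthy and 30 to 56.9% in recovered ones. Timp1 made up 38.9 to 47%, 0.779 to 22.8% and 43 to 69.7% in healthy, pre-leukemic and recovered libraries. These Timp shares carry the same uncertainty, since reads of Timp3 and Syn3 cannot be told apart. All described and undescribed members together held 0.573 to 0.648% of the FPKM outside immunoglobulin genes in healthy libraries, 0.0209 to 0.0426% of it in pre-leukemic libraries, but 0.51 to 0.545% in the recovered ones.

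**Figure D4:**
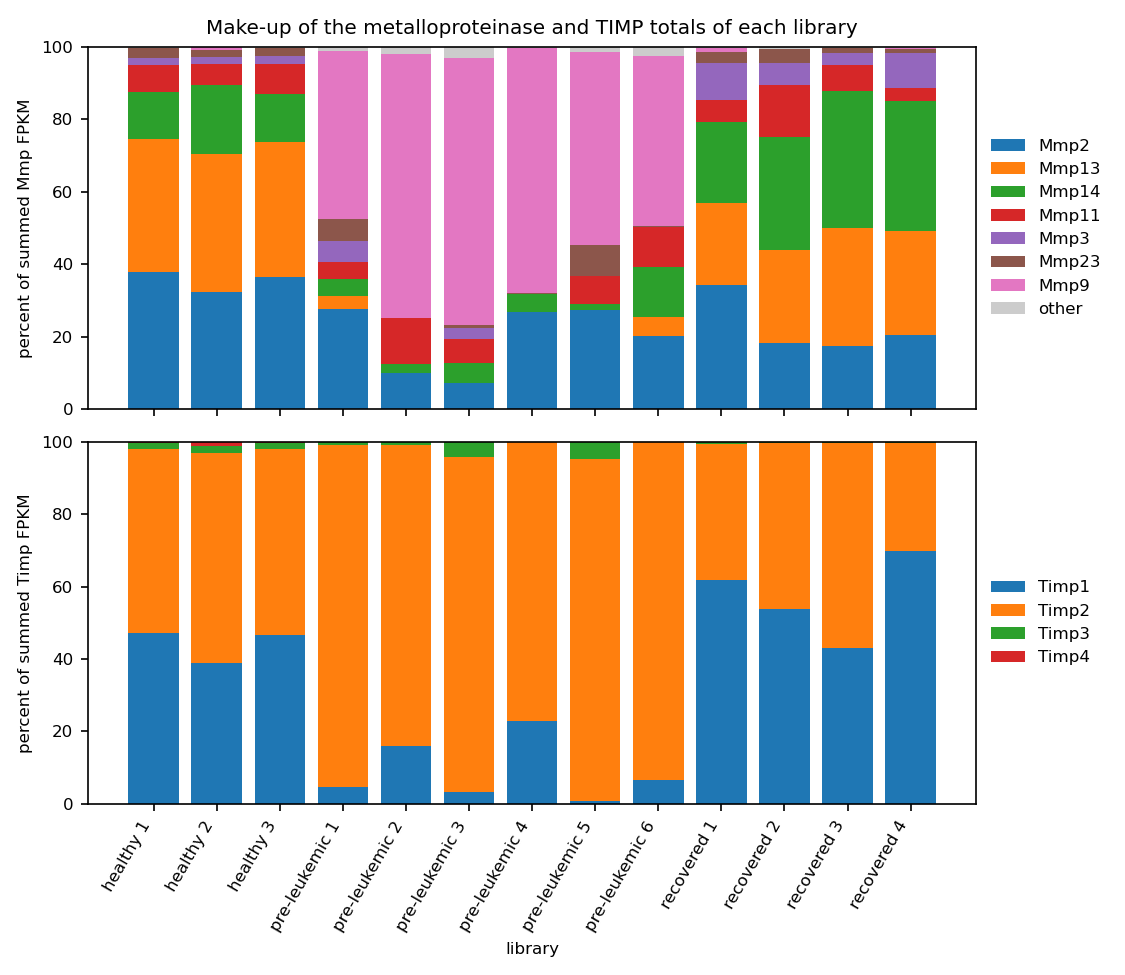
Stacked bars give each gene's percent of the summed Mmp FPKM (top) and of the summed Timp FPKM (bottom) in each of the 13 libraries. Mmp9 fills 46.6 to 73.8% of the Mmp bar in the 6 pre-leukemic libraries but no more than 1.12% elsewhere, and Timp2 fills at least 77% of the pre-leukemic Timp bars.

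Among ADAMTS genes, the proteoglycan-cleaving enzymes were followed by Adamts1, Adamts4, Adamts5 and Adamts15. Adamts1 (chr16:85793827-85803113), which cuts versican and aggrecan, had 47.1, 63.9 and 47.7 FPKM in healthy 1 to 3, 90.2, 58.5, 27.5 and 89.5 FPKM in recovered 1 to 4 and 0.188 to 6.98 FPKM, median 1.42, in pre-leukemic libraries. Healthy and recovered libraries overlapped, and pre-leukemic ones were below both. Adamts1 fell by 4.52 ± 0.71 (limma, adjusted p = 0.000291) and rose by 4.65 ± 0.56 in recovered against pre-leukemic cells (1.65e-05).

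Its neighbour Adamts5 (chr16:85856173-85901828), a main aggrecanase, stood at 36.2, 27.9 and 34.95 FPKM in healthy 1 to 3, at 38.9, 32.1, 45.5 and 26.9 FPKM in recovered 1 to 4 and at 0.611 to 5.77 FPKM, median 3.76, in pre-leukemic libraries. The recovered range enclosed the healthy one. The changes were -3.09 ± 0.60 (limma, adjusted p = 0.00153) and 3.24 ± 0.47 (9.32e-05). Adamts4 (chr1:171250421-171260637), the other well-known aggrecanase, had 12.01, 21.0 and 11.3 FPKM in healthy 1 to 3, 11.7, 15.8, 16.7 and 4.95 FPKM in recovered 1 to 4, and was listed at 0 in 4 of 6 pre-leukemic libraries with a highest value of 1.45. Groups overlapped between healthy and recovered only. It fell by 3.82 ± 0.57 (limma, adjusted p = 0.000204) and rose by 3.37 ± 0.45 (4.38e-05).

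Adamts15 (chr9:30899155-30922452), a related versican-cleaving enzyme, was at 1.42, 0 and 2.83 FPKM in healthy 1 to 3, at 0.621, 3.44, 2.39 and 2.99 FPKM in recovered 1 to 4 and at 0 to 0.609 FPKM, median 0.0188, in pre-leukemic libraries. Recovered libraries were all above pre-leukemic ones. It rose by 1.49 ± 0.40 in recovered against pre-leukemic cells (limma, adjusted p = 0.00876, and 0.0556 with replicate number as a block). Adamts15 passed the filter only with the recovered libraries, so this call carries little weight.

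The procollagen N-proteinases, which trim fibrillar procollagens, are encoded by Adamts2, Adamts3 and Adamts14. Adamts2 (chr11:50602084-50807573) had 27.6, 37.4 and 28.8 FPKM in healthy 1 to 3, 23.9, 24.0, 5.40 and 23.2 FPKM in recovered 1 to 4 and 0.505 to 3.57 FPKM, median 2.76, in pre-leukemic libraries. The groups did not overlap, and recovered 3 was well below the other recovered libraries. Adamts2 fell by 3.49 ± 0.65 (limma, adjusted p = 0.00108) and rose by 2.57 ± 0.51 (0.00119).

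Adamts3 (chr5:89677087-89883334) stood at 2.40, 2.49 and 3.66 FPKM in healthy 1 to 3, at 0, 1.30, 0 and 0.0439 FPKM in recovered 1 to 4 and at 0 in all but pre-leukemic 1 (0.237). Healthy libraries were above all others. It fell by 1.86 ± 0.39 in pre-leukemic against healthy cells (limma, adjusted p = 0.0025), and the change of -1.59 ± 0.41 in recovered against healthy cells did not pass (0.0588, from 0.0152 to 0.266 over the alternatives). It passed on the TPM scale (0.0189), without a filter (0.0224), with healthy 1 and 3 apart (0.0156), without healthy 1 (0.0482) and without recovered 2 (0.0152). Adamts3 passed the filter only with the healthy libraries, so its p-values against them carry little weight. Adamts14 ran from 0 to 0.195 FPKM (healthy), 0.132 to 2.67 (pre-leukemic) and 0.713 to 7.64 (recovered), so recovered libraries were above all healthy ones, and no comparison passed (adjusted p 0.1 to 0.288). It was called higher in recovered than in pre-leukemic cells after quantile normalization (1.72, limma adjusted p = 0.0106), on the TPM scale (1.79, 0.00722) and without recovered 1 (1.47, 0.0228). Against healthy cells it was called higher with healthy 1 and 3 apart (1.94, 0.0494) and without recovered 1 (2.40, 0.0374).

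Adamts7 (chr9:90163069-90208071), which cuts cartilage oligomeric matrix protein, was at 3.92, 0 and 6.31 FPKM in healthy 1 to 3, at 6.41, 0.593, 4.81 and 2.63 FPKM in recovered 1 to 4, and was listed at 0 in all 6 pre-leukemic libraries. It was called higher in recovered than in pre-leukemic cells (limma, adjusted p = 0.00667) with no fold given against 0. Adamts7 passed the filter only with the recovered libraries, and a call against libraries at 0 could only be higher. This p-value therefore carries little weight. It was also called lower in pre-leukemic than in healthy cells with healthy 1 and 3 apart (limma, adjusted p = 0.0286), with the replicate block (0.0453) and without healthy 2 (0.0226). Tbc1d2b, at 1.61 to 23.0 FPKM and uncalled throughout, overlaps an exon on the opposite strand.

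Adamts10, which acts on fibrillin microfibrils, had a higher level than any other ADAMTS gene in each pre-leukemic library. Its level was 30.4 to 31.8 FPKM (healthy), 15.1 to 30.6 (pre-leukemic) and 1.001 to 24.5 (recovered), and no comparison passed (limma, adjusted p 0.213 to 0.538). It held 15.7 to 18.7% of the family's FPKM (healthy), 52.4 to 73.6% (pre-leukemic) and 0.943 to 12.3% (recovered), with no overlap. On the TPM scale it was called lower in pre-leukemic than in healthy cells (-2.26, 0.0438). Adamts6 and Adamts16 stayed at or below 9.23 FPKM in every library and passed in no comparison.

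**Figure D5:**
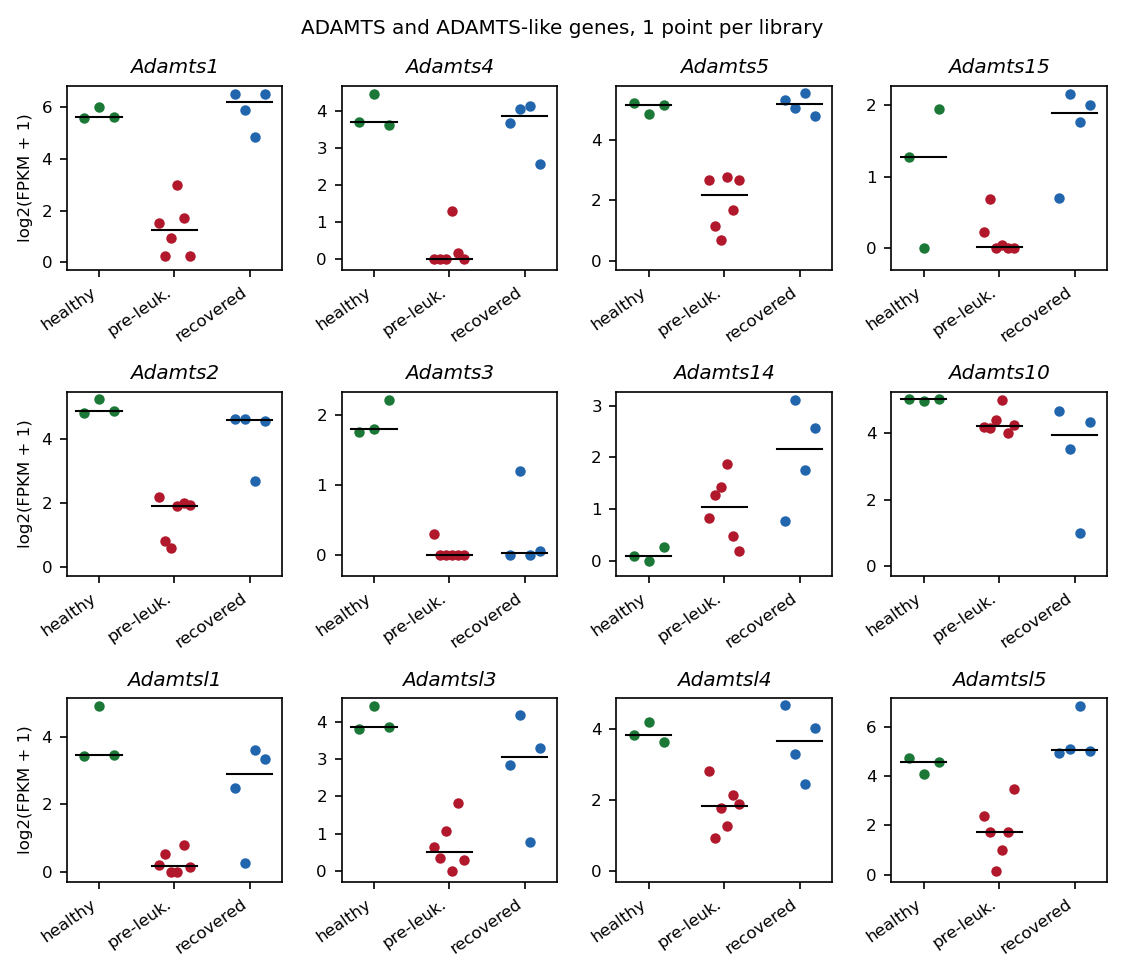
Each point is 1 library's log2(FPKM + 1) for 8 Adamts and 4 Adamtsl genes in healthy (3), pre-leukemic (6) and recovered (4) libraries, with the group's median as a black bar. Among the genes shown, pre-leukemic and healthy points overlap for Adamts15, Adamts14 and Adamts10, and pre-leukemic points lie below for the others. How many of all tested genes separate these groups was not counted, and the healthy points rest on 2 samples.

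ADAMTS-like genes encode matrix proteins without protease activity. Adamtsl5 (chr10:80339110-80348412), whose product binds fibrillin, had 25.2, 15.9 and 23.0 FPKM in healthy 1 to 3, 29.9, 33.1, 113 and 31.6 FPKM in recovered 1 to 4 and 0.121 to 9.98 FPKM, median 2.30, in pre-leukemic libraries. All recovered libraries exceeded all healthy ones, with recovered 3 far above. It fell by 2.63 ± 0.76 (limma, adjusted p = 0.0193) and rose by 3.74 ± 0.60 (0.000217).

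Adamtsl4 (chr3:95676201-95687917), a microfibril protein of the eye's suspensory fibres among other tissues, stood at 13.2, 17.5 and 11.6 FPKM in healthy 1 to 3, at 24.9, 8.84, 4.54 and 15.4 FPKM in recovered 1 to 4 and at 0.903 to 6.16 FPKM, median 2.57, in pre-leukemic libraries. Recovered 3 lay within the pre-leukemic range. Its changes were -2.17 ± 0.64 (limma, adjusted p = 0.0221) and 1.82 ± 0.51 (0.0114).

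Adamtsl1 (chr4:85514172-86428385), a secreted matrix glycoprotein also called punctin, had 9.88, 28.8 and 10.03 FPKM in healthy 1 to 3, 4.57, 0.199, 11.2 and 9.15 FPKM in recovered 1 to 4 and 0 to 0.723 FPKM, median 0.134, in pre-leukemic libraries. Recovered 2 lay within the pre-leukemic range. It fell by 3.90 ± 0.75 (limma, adjusted p = 0.00141) and rose by 2.14 ± 0.59 (0.0106). Adamtsl3 (chr7:82335694-82614450) was at 13.1, 20.4 and 13.6 FPKM in healthy 1 to 3, at 6.17, 17.0, 0.724 and 8.81 FPKM in recovered 1 to 4 and at 0 to 2.53 FPKM, median 0.42, in pre-leukemic libraries. Recovered 3 lay within the pre-leukemic range. Its changes were -3.44 ± 0.76 (limma, adjusted p = 0.00369) and 2.08 ± 0.60 (0.0132).

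Adamtsl2, linked to fibrillin and latent growth factor binding, ranged from 1.78 to 5.81 FPKM (healthy), 0 to 4.58 (pre-leukemic) and 0 to 9.72 (recovered) and passed in no comparison. The falls of Adamtsl1, Adamtsl3, Adamtsl4 and Adamtsl5 in pre-leukemic cells did not pass without healthy 2 (limma, adjusted p 0.0531, 0.0714, 0.19 and 0.101), when a single healthy sample is left and is assumed to vary like the other groups.

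The 8 described members outside the test were low. Mmp12, Mmp17, Mmp24 and Adamts13 did not reach 1 FPKM in any library. Mmp16 reached 1.94 FPKM in healthy 1, Mmp28 1.31 in recovered 1 and Adamts9 3.72 in healthy 1. Adamts17 had 6.62 FPKM in healthy 2 and 7.59 in pre-leukemic 6 but at most 0.842 elsewhere. Adamts13, which cuts von Willebrand factor, was above 0 in all 6 pre-leukemic libraries, at 0.129 to 0.415 FPKM, and in 3 of the other 7.

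Genes that act on the metalloproteinase system were read from lists. Of 19 tested genes of activation and inhibition, 2 were higher and 10 lower in pre-leukemic than in healthy cells, 11 higher and 2 lower in recovered than in pre-leukemic cells, and 1 higher and 0 lower in recovered than in healthy cells. The median changes of the list were -2.43, 1.79 and 0.08, against 0.20, -0.41 and -0.08 over all genes tested. Among all genes tested, 14.2%, 14.8% and 0.518% were called higher in these 3 comparisons and 13.1%, 25.1% and 1.99% lower. The gene higher in recovered than in healthy cells was Plau, the urokinase that opens the plasmin route of metalloproteinase activation, with means of 64.2 ± 7.02 FPKM (SD, n = 2, healthy), 0.406 ± 0.309 FPKM (SD, n = 6, pre-leukemic) and 572 ± 258 FPKM (SD, n = 4, recovered). It was higher by 3.01 ± 0.51 in recovered than in healthy cells (limma, adjusted p = 0.00704). Pcolce, the enhancer of procollagen C-proteinase, and Serpine2, a serpin that blocks urokinase and thrombin, fell by 4.13 ± 0.76 and 5.02 ± 0.57 in pre-leukemic against healthy cells (0.00101 and 2.21e-05), while Bsg, an inducer of metalloproteinases, and Cd44, a docking site for Mmp9 and Mmp14, passed in no comparison.

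Of 19 other matrix-cleaving proteases tested, 4 were higher and 9 lower in pre-leukemic than in healthy cells, 11 higher and 3 lower in recovered than in pre-leukemic cells, and 0 passed between recovered and healthy cells by limma, where 1 was higher and 0 lower at an unadjusted p under 0.05. Their median changes were -1.13, 1.78 and 0.24. No share of all genes was counted at the unadjusted threshold. Over all genes the shares called higher were 14.2%, 14.8% and 0.518%, and those called lower 13.1%, 25.1% and 1.99%. Ctsk, the collagen-cutting cathepsin K, was at 262 ± 12.3 FPKM (healthy), 7.33 ± 4.87 (pre-leukemic) and 337 ± 180 (recovered), as mean ± SD over 2, 6 and 4 samples. Ctss, the cathepsin of antigen-presenting cells, had the opposite order, at 1.26 ± 0.533, 675 ± 126 and 5.30 ± 4.75 FPKM. It rose by 8.22 ± 0.59 in pre-leukemic against healthy cells (limma, adjusted p = 4.79e-07).

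Matrix proteins that these enzymes cut were also counted. Of 26 tested, 25 were lower and 0 higher in pre-leukemic than in healthy cells, 24 higher and 0 lower in recovered than in pre-leukemic cells, and 0 higher and 2 lower in recovered than in healthy cells (1 and 9 at an unadjusted p under 0.05). The median changes were -4.94, 3.52 and -0.68. No share of all genes was counted at the unadjusted threshold, so those counts cannot be read as an excess. For these proteins and the transcription factors below, the shares of all genes called higher were 14.2%, 14.8% and 0.518%. Those called lower were 13.1%, 25.1% and 1.99%. Fn1, fibronectin, fell by 5.16 ± 0.46 in pre-leukemic against healthy cells (limma, adjusted p = 2.67e-06), and Dcn, decorin, by 4.77 ± 0.46 (5.57e-06). Of 20 transcription factors known to act on metalloproteinase genes, 2 were higher and 9 lower in pre-leukemic than in healthy cells, and 10 were higher and 4 lower in recovered than in pre-leukemic cells. Between recovered and healthy cells 1 was higher and 1 lower, and the median changes were -1.06, 1.09 and 0.06. The latter were Cebpb, which rose by 2.37 ± 0.51 (0.0261), and Fos, a subunit of AP-1, which fell by 1.5 ± 0.32 (0.0253) in recovered against healthy cells. The erythroid markers, at 35.4 to 49.7 FPKM summed in healthy and 1650 to 2638 in recovered libraries, differed in the same comparison, and their part was not tested.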

How the data were processed

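Polyadenylated RNA of 13 libraries of sorted mouse MSCs (3 healthy, 6 pre-leukemic, 4 recovered) was made into Nextera XT libraries, per the labels' protocols. The authors deposited 1 table of FPKM values, made with bcl2fastq, TopHat, Cufflinks 2.2.1 and Cuffnorm on mm10, per the submitters' processing notes. Which library-size method and annotation they used is not stated in the sources. Scaling can shift a whole library, which is why ratios within libraries are given beside changes. One entry without a name held 0 FPKM and was left out.

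Members and lists were chosen with earlier results of these data known, and 1 gene matched by the name pattern is not reported here. Members called in any comparison are given by library, the others by range, and up to 6 genes of a list by highest mean. Coordinates are those of GENCODE M21 (GRCm38) for 50 of 50 members, matched by symbol. Promoters are from RefSeq on GRCm38.p6. Relative depth came from steps in the low FPKM of 5240 single-transcript genes of at least 800 bp, at a tolerance of 0.06 on the log2 scale. Healthy 1 and 3, near-duplicates, were averaged.

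The test was limma 3.58.1 (two-sided, lmFit then eBayes with a trend) in R 4.3.3 on log2(FPKM + 1), with all 3 groups (12 samples) fitted together. It covered the 13118 genes that reached 1 FPKM in 3 or more libraries. P-values were adjusted by Benjamini-Hochberg over all of them, with calls under 0.05. The fit was tested on simulated data. Alternatives were quantile normalization, the TPM scale, scaling to the sum without immunoglobulin genes, a pseudocount of 0.1, no filter, a mean of at least 5 FPKM, healthy 1 and 3 apart, a block for replicate number, and leave-one-out over the libraries. Python 3.11.15 with pandas 2.3.3 and matplotlib 3.10.9 made summaries and plots.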

Additional observations from a re-analysis of the deposited data

Results flagged for a closer look

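In 9 of 53 gene and group combinations, a single library stood apart from the rest of its group by a gap test on log2(FPKM + 1). The test's chance rate of about 5% of groups does not hold for groups listed mostly at 0. Where all other libraries are at 0, as for Adamts3 (pre-leukemic) and Adamts6 (recovered), the flag is fixed by the zeros. These genes also share libraries, so the count is a description only. Among pre-leukemic libraries, Mmp11 was lowest in pre-leukemic 4 at 0 FPKM, Adamts4 highest in pre-leukemic 4 at 1.45, Adamts3 and Adamts16 highest in pre-leukemic 1 at 0.237 and 0.609, and Adamts15 highest in pre-leukemic 2 at 0.609. Among recovered libraries, Adamts2 was lowest in recovered 3 at 5.40 FPKM and Adamtsl5 highest in recovered 3 at 113, and Adamts3 and Adamts6 were highest in recovered 2 at 1.30 and 0.291.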

How the results depend on the processing

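Of 43 calls of named members, 36 were kept under every alternative run and 7 were lost under at least 1, and none changed direction; 6 of the 43 could not be tested with a mean of at least 5 FPKM. The alternatives ending a call were named for Mmp9, Timp3, Adamts15 and the 4 Adamtsl genes beside their values. The count of members higher in pre-leukemic than in healthy cells was 0 in place of 1 on the TPM scale, with a pseudocount of 0.1 and without a filter, and 0 to 1 with 1 library left out. Members higher in recovered than in healthy cells numbered 1 in place of 0 with healthy 1 and 3 apart (Adamts14), and 0 to 1 with 1 library left out. Members lower in recovered than in healthy cells numbered 1 in place of 2 after quantile normalization, with a pseudocount of 0.1 and with the replicate block, 0 with a mean of at least 5 FPKM (Timp4 is then not tested), 3 on the TPM scale and with healthy 1 and 3 apart (Adamts3 added), and 1 to 2 with 1 library left out. The cause of the other changes was not tested. Replicate numbers did not pair the libraries: 0 of 10 same-numbered pairs correlated over 0.1 (-0.02 to 0.03), and own numbers correlated best in 4 of 20 checks. With the replicate block, 20 members were lower in pre-leukemic than in healthy cells and 19 higher in recovered than in pre-leukemic cells. The TPM scale moved the median change of all genes by -1.28, 0.99 and -0.18 in the 3 comparisons, quantile normalization by -0.13, 0.33 and 0.11, and scaling without immunoglobulin genes by 0.11, -0.23 and -0.13. With 2 healthy samples and levels of a few FPKM or less, depth limits what can be said of Mmp19, Adamts3, Adamts7, Adamts14, Adamts15 and the untested members.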
